A study of Homo sapiens with 12 samples.

Results

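The response of MDA-MB-468 cells to the loss of SMARCA4 was examined as a knockout (KO) against control comparison, in 6 of the 12 RNA-seq samples of the study: 3 samples labelled WT or Control, of wild type genotype, and 3 labelled SMARCA4-KO. The samples were taken by cell line and genotype from the labels. MDA-MB-468 is an established basal-like triple-negative breast cancer cell line, that is, one without estrogen receptor, progesterone receptor and HER2 amplification. KO cells were made with a lentiviral CRISPR/Cas9 vector that carries 1 guide, and were kept by puromycin selection as a transduced population rather than as a single clone, so the 3 KO samples share 1 guide and 1 line. The labels do not say whether the controls carried a vector, nor that replicates were separate infections, so p-values measure the spread between these samples. The other 6 samples, MDA-MB-231 control and KO cells, serve only to test where the change differs between the cell lines.

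SMARCA4 (BRG1) is an ATPase of the mammalian SWI/SNF chromatin remodeling complexes, which move and evict nucleosomes at promoters and enhancers. Its paralog SMARCA2 can take the same place in the complex. In epithelial cells, the complexes are known to act with lineage transcription factors, and the effect of their loss on a given gene can go in either direction.

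The guide carries the experiment, and so its site is shown. Its 20 bases had 1 exact match in the genome (GRCh37, the same build as hg19), at chr19:11095933-11095952 on the plus strand, which is the strand of SMARCA4. Below, 5′ to 3′, the capitals mark the guide and the 3 bases of the PAM (TGG) that follow it.
SMARCA4 guide site: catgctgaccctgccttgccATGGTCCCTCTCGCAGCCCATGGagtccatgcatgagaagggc
The first 16 bases of the guide lie in an intron and the last 4 in the coding exon that starts at 11095949, so the guide spans the splice acceptor. That exon is exon 3 in 12 of the annotated protein-coding transcripts, exon 4, the number the labels give, in 7 and exon 2 in 1.

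SMARCA4 was first measured in every sample as a check of the labels. On the deposited scale, log2(FPKM + 1), it was 6.61, 6.62 and 6.68 in the controls and 5.35, 5.48 and 5.61 in the KO samples. All 3 KO samples lay below all 3 controls, and the mean went from 98.5 to 43.6 FPKM (change, KO minus control, -1.16 ± 0.08 (SE), adjusted p = 0.0137, n = 3 per group). The transcript was therefore lowered but still present. Reads of an edited transcript count toward this value, so it does not measure protein.

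Same-numbered control and KO samples deviated together, but control replicate 3 followed KO replicates 2 and 3 about equally, so the pairing is unsettled. A p number in the sample descriptions pairs the samples otherwise. A second fit took the replicate number as a block, and its adjusted p is given as "block p" where it ends or makes a call. Of the 23 SWI/SNF subunits in the table, SMARCA4 was the only differentially expressed gene (DEG: limma, Benjamini-Hochberg adjusted p under 0.05 over all genes and an absolute log2 change over 0.5, which 2.14% of all genes met). SMARCA2, the other ATPase, did not pass at -0.28 ± 0.09 (SE), adjusted p = 0.129. The largest positive value was that of BCL7B, 0.37 ± 0.06 (SE), adjusted p = 0.0379, block p 0.0695, whose change is under the 0.5 limit. SMARCB1, a core subunit, was at 0.25 ± 0.07 (SE), adjusted p = 0.12, and PHF10, a subunit of the PBAF form, at -0.21 ± 0.06 (SE), adjusted p = 0.0913. The ATPase-module subunits ACTL6A (-0.03), SS18 (-0.04) and BCL7C (0.07) and the core subunits SMARCC1 (-0.15), SMARCC2 (-0.08), SMARCD1 (0.12), SMARCD2 (-0.06), SMARCD3 (-0.05) and SMARCE1 (-0.04) did not pass. Nor did subunits that define the complex types: ARID1A (0.12), ARID1B (-0.05) and DPF2 (0.15) of BAF, PBRM1 (-0.15), ARID2 (-0.11) and BRD7 (-0.10) of PBAF, and BRD9 (-0.02), GLTSCR1 (0.04) and GLTSCR1L (0.06) of the noncanonical form. A p that misses the threshold does not show that a subunit stayed the same.

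Over all 11529 genes, 247 were DEGs. Of these, 153 were higher in KO cells (1.33% of all genes) and 94 lower (0.815%), and 53 changed by over 1 on the log2 scale. In all 247 the 3 KO values and the 3 control values did not overlap, against 3579 genes (31.0%) without overlap in the whole table. A call favours such separation, so it adds no support for the DEGs named below. An unadjusted p under 0.05 was seen in 2899 genes (25.1%), the share against which such counts within the lists below are to be read. A further 185 genes had an adjusted p under 0.05 but a change of at most 0.5, and 454 changed by over 0.5 without passing the adjusted p. The median change of all genes was 0.016, so the changes below are close to changes relative to the bulk of the transcriptome.

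**Figure D1:**
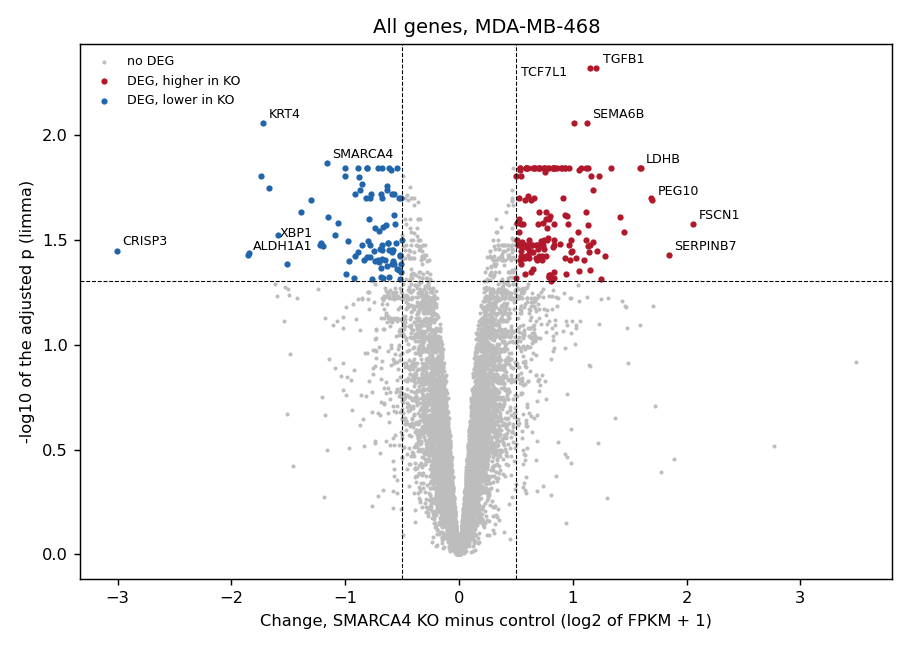
Change of each of the 11529 genes in MDA-MB-468 (x axis, KO minus control on the log2(FPKM + 1) scale) against the −log10 of its adjusted p (y axis), with DEGs higher in KO in red, lower in blue, other genes in grey and the limits dashed. The 153 higher and 94 lower DEGs fan out above the adjusted p limit, CRISP3 is farthest to the left at -3.0 and FSCN1 is the called gene farthest to the right at 2.06.

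The count depends on the 6 libraries. The first principal component, 52.8% of the variance, separated the groups, with the controls between -20.2 and -9.53 and the KO samples at 5.45, 16.7 and 18.8, so KO replicate 1 lay nearest to the controls. Without KO replicate 1 the fit called 474 genes, without KO replicate 2 none (540 genes at an unadjusted p under 0.05 past the fold limit), and without KO replicate 3 it called 5. Without control replicate 1 it called 27, without control replicate 2 none (616 likewise), and without control replicate 3 it called 12. The fit with the replicate number as a block called 241 genes, 136 higher and 105 lower, of which 151 were among the 247. With the p number as the block it called 0. The values behind the calls were FPKM estimates without read counts, so depth is unknown.

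Among the 15 largest increases of called genes were genes of the cytoskeleton, of secreted and surface signals and of metabolism. FSCN1 encodes fascin, which bundles actin filaments in protrusions, and it was 0.77, 1.14 and 1.34 in the controls and 2.63, 3.31 and 3.49 in the KO samples. Its KO samples were all above the controls, from 1.14 to 8.1 FPKM on average (2.06 ± 0.26 (SE), adjusted p = 0.0266). SERPINB7, a serine protease inhibitor of epithelia, was 2.33, 2.81 and 3.14 in the controls and 4.10, 4.86 and 4.85 in the KO samples (1.85 ± 0.29 (SE), adjusted p = 0.0374). PEG10, an imprinted gene derived from a retrotransposon, went from 18 to 60.3 FPKM (1.70 ± 0.19 (SE), adjusted p = 0.0206), and SGCE, its imprinted neighbour on chromosome 7, also rose (0.90 ± 0.08 (SE), adjusted p = 0.0145). In each of these the lowest KO sample was above the highest control. TNFSF9, the 4-1BB ligand, was 2.5, 2.76 and 2.93 in the controls and 4.07, 4.52 and 4.66 in the KO samples (1.68 ± 0.19 (SE), adjusted p = 0.0199). TNNT1, the troponin T of slow skeletal muscle, was 1.41, 1.79 and 1.21 in the controls and 3.06, 3.07 and 3.07 in the KO samples (1.60 ± 0.15 (SE), adjusted p = 0.0145), with KO values that hardly varied. LDHB, a subunit of lactate dehydrogenase, was 3.94, 4.13 and 4.35 in the controls and 5.81, 5.76 and 5.62 in the KO samples (1.59 ± 0.12 (SE), adjusted p = 0.0145). The rest of the 15 were TIMP3 (1.45), SGK1 (1.42), the alpha-catulin gene CTNNAL1 (1.33), FADS3 (1.28), JAG2 (1.25), the proton pump subunit ATP6V1C2 (1.23), GSTP1 (1.21), TGFB1 (1.20) and the focal adhesion gene LIMS2 (1.17). Of the 15, JAG2 (block p 0.0855) and GSTP1 (block p 0.06) lost the call with the block.

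Among the 15 largest decreases of called genes were secreted and metabolic genes. CRISP3, a secreted cysteine-rich protein, was 6.62, 5.78 and 5.41 in the controls and 3.72, 2.78 and 2.30 in the KO samples, and its mean went from 64.3 to 7.32 FPKM (-3.0 ± 0.46 (SE), adjusted p = 0.0357). ALDH1A1, which makes retinoic acid and is used as a stem cell marker in breast cancer, was 4.37, 4.21 and 4.28 in the controls and 3.09, 2.28 and 1.92 in the KO samples (-1.86 ± 0.29 (SE), adjusted p = 0.0374). PTGS1, cyclooxygenase 1, was 4.03, 3.82 and 3.63 in the controls and 2.62, 1.77 and 1.56 in the KO samples (-1.84 ± 0.29 (SE), adjusted p = 0.0368). In these genes KO replicate 1 kept the highest KO value and was still below every control. KRT4, a keratin of stratified mucosa, was 5.60, 5.39 and 5.41 in the controls and 3.90, 3.68 and 3.64 in the KO samples (-1.72 ± 0.09 (SE), adjusted p = 0.00885), with tight values in both groups. MYZAP, a junction-associated protein known from heart muscle, went from 2.63 to 0.153 FPKM (-1.67 ± 0.17 (SE), adjusted p = 0.018), and 1 of its KO samples is listed at 0. The others were the steroid reductase AKR1C3 (-1.59), the transcription repressor ZBTB7C (-1.51), the tight junction claudin CLDN10 (-1.39), gamma-synuclein SNCG (-1.30), XBP1 (-1.23), RCSD1 (-1.21), NAV2 (-1.20), SMARCA4 itself, the phospholipase HRASLS2 (-1.15) and the unnamed locus RP11-91J3.3 (-1.74). With the block, ALDH1A1 (block p 0.0526), AKR1C3 (block p 0.0569) and ZBTB7C (block p 0.05004) lost the call.

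The most abundant DEGs, by mean FPKM, formed another set. FTH1, the ferritin heavy chain that stores iron, went from 3135 to 5501 FPKM (0.82 ± 0.12 (SE), adjusted p = 0.0345). The protease inhibitor LXN (1.14 ± 0.15 (SE), adjusted p = 0.027, block p 0.0505), the LIM protein FHL2 (0.64 ± 0.07 (SE), adjusted p = 0.0206), the glutamate transporter SLC1A3 (0.53 ± 0.07 (SE), adjusted p = 0.0252) and KRT15 were the other abundant higher genes. Abundant lower genes were S100A4, XBP1, the quinone reductase NQO1, ARHGDIB and the lipid transfer protein STARD10 (-0.92 ± 0.17 (SE), adjusted p = 0.048).

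The label MDA-MB-468 was checked against markers. All 10 epithelial markers, basal keratins and the luminal keratins KRT8 and KRT18 among them, were measured, each above 2 on the log2 scale in every sample. The receptor EGFR was at 484 FPKM in controls and 543 in KO cells, and the adhesion molecule EPCAM at 302 and 283. Of 20 defining markers of leukocytes, fibroblasts and endothelium, 1 passed the authors' expression filter. That gene was CD14, at -0.57 (adjusted p = 0.421), and among the wider leukocyte list 5 of 30 genes were measured and ARHGDIB fell (-0.57 ± 0.06 (SE), adjusted p = 0.0193). ESAM, the only measured gene of the wider fibroblast and endothelial list, was at 0.32 ± 0.07 (SE), adjusted p = 0.0613.

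Luminal cells are the hormone-responsive, secretory cells of the breast. Of 21 luminal and hormone receptor genes, 4 fell and none rose, 17 had a lower KO mean and the median change was -0.20. XBP1, a transcription factor of secretory cells and the unfolded protein response, was 8.24, 7.98 and 7.95 in the controls and 7.20, 6.72 and 6.57 in the KO samples (-1.23 ± 0.18 (SE), adjusted p = 0.0334). FOXA1, a forkhead pioneer factor of luminal cells, was 5.84, 5.56 and 5.54 in the controls and 5.01, 4.76 and 4.78 in the KO samples (-0.80 ± 0.11 (SE), adjusted p = 0.0322). NFIA (-0.79 ± 0.13 (SE), adjusted p = 0.0384, block p 0.0505) and MYB (-0.56 ± 0.07 (SE), adjusted p = 0.0266) are transcription factors of the same list. All 4 had KO values below every control. Of other members, named outside the rule for named genes, GATA3, which marks luminal cells, did not pass at -0.32 ± 0.09 (SE), adjusted p = 0.107, and SPDEF was at -0.68 ± 0.15 (SE), adjusted p = 0.0641. The luminal keratins KRT8 (0.495 ± 0.07 (SE), adjusted p = 0.0318) and KRT18 (0.25 ± 0.07 (SE), adjusted p = 0.0999) went the other way, KRT8 just under the 0.5 limit.

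Keratins, the intermediate filaments of epithelia, had a median change of 0.39, which was 0.26 without KO replicate 3, with 13 of 16 genes higher by sign in KO cells. KRT10, a keratin of differentiating epidermis, rose from 20.2 to 43.1 FPKM (1.05 ± 0.10 (SE), adjusted p = 0.0147). KRT15, a basal keratin, also rose (0.59 ± 0.09 (SE), adjusted p = 0.0342, block p 0.0526), while KRT4 fell. The basal keratin KRT17, also named after its values were seen, was 6.09, 6.94 and 7.28 in the controls and 7.46, 8.45 and 8.84 in the KO samples, a large difference with a wide spread (1.48 ± 0.45 (SE), adjusted p = 0.122, block p 0.0329). KRT16 (0.85, block p 0.0449) and KRT6B (0.68, block p 0.043) likewise passed only with the block, so the block fit called 5 keratins against 3. Among basal and myoepithelial genes, 1 of 18 rose, the forkhead factor FOXC1 (0.80 ± 0.14 (SE), adjusted p = 0.0465, block p 0.058), and the block fit called 4 others. Among them was CRYAB, a small heat shock protein, 6.02, 5.53 and 5.44 in the controls and 4.74, 3.91 and 3.84 in the KO samples (-1.50 ± 0.29 (SE), adjusted p = 0.0545, block p 0.043).

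Junctions seal and anchor epithelial cells. Of 29 tight junction and polarity genes, CLDN8 rose (0.56 ± 0.07 (SE), adjusted p = 0.0267) and CLDN10 fell, from 55.2 to 20.7 FPKM (-1.39 ± 0.17 (SE), adjusted p = 0.0233). None of 35 adherens junction and desmosome genes passed (10 had an unadjusted p under 0.05, a share near that of all genes), and CDH1, which encodes E-cadherin, was at -0.22 ± 0.11 (SE), adjusted p = 0.274. The 2 smallest p-values of that list were those of PVRL1 (-0.31 ± 0.07 (SE), adjusted p = 0.071) and of OVOL2 (0.22 ± 0.05 (SE), adjusted p = 0.0618). Of 19 secreted defence proteins, CRISP3 alone fell, with a list median of -0.30 that was between -0.48 and -0.11 without 1 of the KO replicates. The chaperone clusterin, CLU, was 9.44, 8.85 and 8.64 in the controls and 7.92, 7.33 and 7.11 in the KO samples and passed only with the block (-1.52 ± 0.29 (SE), adjusted p = 0.0533, block p 0.0278), and that fit called 3 of the list, LGALS3 included. Of 15 S100 proteins, S100A4, a calcium-binding protein linked to motility, fell (-0.77 ± 0.14 (SE), adjusted p = 0.0485, block p 0.0821).

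Mesenchymal genes and factors of epithelial-mesenchymal transition gave 4 higher and 1 lower DEG of 26, with a median of 0.08. That median was 0.40 with a pseudocount of 0.1 and 0.56 among members with a mean over 1. It was 0.020 under quantile normalization, with 14 genes higher and 9 lower, and 0.065 without KO replicate 3. The growth factor PDGFC (0.88 ± 0.13 (SE), adjusted p = 0.0331), FOXC1, the tropomyosin TPM2 (0.74 ± 0.05 (SE), adjusted p = 0.0145) and the collagen cross-linking oxidase LOXL2 (0.60 ± 0.09 (SE), adjusted p = 0.0334, block p 0.0615) rose, and S100A4, counted among mesenchymal genes, fell. VIM, the mesenchymal filament vimentin, went from 2.61 to 3.73 FPKM (0.42 ± 0.17 (SE), adjusted p = 0.21), and the transcription repressor ZEB1 was near 0, from 0.0633 to 0.153 FPKM (0.11 ± 0.08 (SE), adjusted p = 0.427). The block fit called 3 genes of the list, among them CAV1, caveolin 1, 4.0, 4.44 and 4.54 in the controls and 5.13, 6.01 and 6.15 in the KO samples (1.44 ± 0.30 (SE), adjusted p = 0.062, block p 0.0449).

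Actin genes gave 5 DEGs, all higher, of 49, and 39 of the list had a higher KO mean. Beside FSCN1 and TNNT1, these were MYL9, a myosin light chain of contractile cells, which went from 0.533 to 2.22 FPKM (1.07 ± 0.09 (SE), adjusted p = 0.0145), the actin-associated LIM protein PDLIM1 (0.94 ± 0.17 (SE), adjusted p = 0.0462) and TPM2. The list median was 0.14, and 0.080 under quantile normalization, with 35 of the 49 higher.

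In the extracellular matrix, 3 of 17 collagens rose and none fell. COL5A2, of fibrillar collagen V, was 3.21, 3.02 and 3.11 in the controls and 3.97, 4.18 and 4.56 in the KO samples (1.12 ± 0.16 (SE), adjusted p = 0.0319, block p 0.0571). COL13A1, a transmembrane collagen, was at 0.95 ± 0.12 (SE), adjusted p = 0.0243, and COL4A1, of basement membranes, at 0.53 ± 0.09 (SE), adjusted p = 0.0394. KO levels of the 3 were between 1.89 and 18.1 FPKM. TNC, the matrix glycoprotein tenascin C, was 0.86, 0.85 and 1.05 in the controls and 1.93, 2.0 and 2.17 in the KO samples (1.11 ± 0.09 (SE), adjusted p = 0.0145), and EFEMP1, fibulin 3, fell (-0.68 ± 0.11 (SE), adjusted p = 0.0391), the only DEGs among 28 laminins and glycoproteins. The leukocyte integrin chain ITGB2 rose (0.74 ± 0.11 (SE), adjusted p = 0.0334, block p 0.0659), the only DEG of 14 integrins. Among 31 matrix proteases and inhibitors, the metalloprotease inhibitor TIMP3 rose from 6.72 to 20.4 FPKM (1.45 ± 0.19 (SE), adjusted p = 0.0291), as did the urokinase gene PLAU, while the membrane serine protease TMPRSS4 fell (-0.99 ± 0.17 (SE), adjusted p = 0.0459). SERPINB7 was the only DEG of 7 clade B serpins, of which 6 had a higher KO mean, with a median of 0.27 (0.47 with a pseudocount of 0.1), and the block fit also called SERPINB2.

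Several signalling pathways had a ligand among their DEGs. Of 23 TGF-beta and activin genes, 2 rose and 1 fell. TGFB1 was 2.90, 2.97 and 2.94 in the controls and 4.17, 4.08 and 4.17 in the KO samples (1.20 ± 0.05 (SE), adjusted p = 0.00483), and TGFB3 was 1.67, 1.40 and 1.65 in the controls and 0.67, 0.80 and 0.80 in the KO samples (-0.81 ± 0.09 (SE), adjusted p = 0.0199, block p 0.0505). The 2 ligands thus moved in opposite directions, TGFB1 at the higher level. GDF15, a stress-induced member of the same superfamily and the other DEG of the list, rose (0.76 ± 0.09 (SE), adjusted p = 0.0233, block p 0.0529). None of 19 BMP and ID genes passed (4 had an unadjusted p under 0.05). ID4, an inhibitor of helix-loop-helix factors, was at -0.68 ± 0.14 (SE), adjusted p = 0.0598, and SMAD1, which transmits BMP signals, at 0.24 ± 0.06 (SE), adjusted p = 0.0722.

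In the Notch pathway, 2 of 18 genes rose. The ligand JAG2 was 1.66, 1.92 and 2.52 in the controls and 3.37, 3.36 and 3.12 in the KO samples (1.25 ± 0.23 (SE), adjusted p = 0.0485, block p 0.0855), and 1 control, replicate 3, lay well above the other controls. LFNG, a sugar transferase that modifies Notch receptors, was at 0.66 ± 0.07 (SE), adjusted p = 0.0199. Of 27 Wnt genes, the transcription factor TCF7L1 rose with a small spread, 3.31, 3.21 and 3.19 in the controls and 4.38, 4.38 and 4.41 in the KO samples (1.15 ± 0.05 (SE), adjusted p = 0.00483). The receptor FZD2 rose (0.50 ± 0.09 (SE), adjusted p = 0.048, block p 0.063) and the receptor FZD4 fell (-0.97 ± 0.14 (SE), adjusted p = 0.0322).

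Of 29 IGF and insulin signalling genes, the DEGs reported here were higher: SGK1, a kinase downstream of PI3K, from 3.55 to 11.3 FPKM (1.42 ± 0.17 (SE), adjusted p = 0.0247), and the IGF-binding protein IGFBP4 (0.71 ± 0.07 (SE), adjusted p = 0.0145). Of 21 other receptor tyrosine kinase genes, the ligands GAS6 (1.16 ± 0.11 (SE), adjusted p = 0.0157) and PDGFC rose and KITLG, the KIT ligand, fell (-0.71 ± 0.12 (SE), adjusted p = 0.0403). None of 23 EGFR family genes, ligands and feedback genes was a DEG (7 had an unadjusted p under 0.05), and the block fit called SPRY2. Of these, DUSP5 was at 0.63 ± 0.15 (SE), adjusted p = 0.0768 and ETV4 at 0.32 ± 0.08 (SE), adjusted p = 0.0805.

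None of 30 Hippo kinases, adaptors and TEAD factors was a DEG (7 had an unadjusted p under 0.05), with AMOT at -0.34 ± 0.09 (SE), adjusted p = 0.0918 and SAV1 at 0.47 ± 0.12 (SE), adjusted p = 0.0869. Of 30 known YAP/TAZ target genes, 2 rose, the kinase NUAK2 (1.05 ± 0.18 (SE), adjusted p = 0.0444, block p 0.0525) and PHLDB2 (0.79 ± 0.10 (SE), adjusted p = 0.0254), and 25 had a higher KO mean (median 0.17, and 0.097 without KO replicate 3). The block fit called 1. Of 34 AP-1 and immediate early genes, ETS1 (0.95 ± 0.12 (SE), adjusted p = 0.0266) and JUND (0.54 ± 0.08 (SE), adjusted p = 0.036, block p 0.0549) rose and the antiproliferative BTG1 fell (-0.58 ± 0.09 (SE), adjusted p = 0.0354, block p 0.0505), and the block fit kept 1 call.

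Axon guidance genes, many of which also act in epithelial and vessel morphogenesis, gave 4 higher DEGs of 47 and none lower, although the median was -0.03. The semaphorin SEMA6B was 2.08, 2.26 and 2.26 in the controls and 3.33, 3.35 and 3.28 in the KO samples (1.13 ± 0.07 (SE), adjusted p = 0.00885). The guidance receptor ROBO3 was near 0 in controls, 0.30, 0.41 and 0.30 in the controls and 1.20, 1.45 and 1.71 in the KO samples (1.12 ± 0.13 (SE), adjusted p = 0.0233). Netrin 1, NTN1, was at 0.97 ± 0.09 (SE), adjusted p = 0.0145, and the ephrin receptor EPHA10 at 0.71 ± 0.08 (SE), adjusted p = 0.0233.

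NF-kappaB genes gave 4 higher DEGs of 33, none lower, 25 genes with a higher KO mean and a median of 0.19. BIRC3, an inhibitor of apoptosis, was 2.73, 2.36 and 2.36 in the controls and 3.42, 3.43 and 3.73 in the KO samples (1.04 ± 0.14 (SE), adjusted p = 0.0291, block p 0.0612). ICAM1, a leukocyte adhesion receptor, was 4.89, 5.01 and 4.89 in the controls and 5.68, 5.37 and 5.59 in the KO samples (0.62 ± 0.09 (SE), adjusted p = 0.0354, block p 0.0741). PLAU (0.55 ± 0.08 (SE), adjusted p = 0.0342, block p 0.0625) and the costimulatory surface protein CD83 (0.53 ± 0.04 (SE), adjusted p = 0.0145) completed the set, and the block fit called CD83 alone.

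Promoters of these genes are shown since all 4 rose and 3 of the 4 hold letters like an NF-kappaB site. GGANNTNCC was searched on both strands in the 250 bases before each start site (RefSeq, GRCh38.p14), a pattern chosen with these promoters in view. Of the tested genes with a promoter in that table, 19.5% of 8790 hold it, as do 22.6% of 115 higher DEGs, 18.8% of 69 lower DEGs and 51.7% of 29 genes of the list. The last 210 bases before each start site follow, 5′ to 3′ on the plus strand, with the matches in capitals.
BIRC3 (GRCh38.p14, chr11:102317274-102317483): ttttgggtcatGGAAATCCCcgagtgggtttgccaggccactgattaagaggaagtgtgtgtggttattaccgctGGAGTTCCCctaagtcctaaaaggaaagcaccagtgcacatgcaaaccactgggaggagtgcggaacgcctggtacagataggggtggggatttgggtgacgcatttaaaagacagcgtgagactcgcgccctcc
CD83 (GRCh38.p14, chr6:14117562-14117771): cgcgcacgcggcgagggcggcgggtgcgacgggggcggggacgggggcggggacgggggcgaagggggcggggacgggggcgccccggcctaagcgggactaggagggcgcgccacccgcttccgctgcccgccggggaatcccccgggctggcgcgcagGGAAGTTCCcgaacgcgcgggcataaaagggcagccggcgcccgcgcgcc
ICAM1 (GRCh38.p14, chr19:10270910-10271119): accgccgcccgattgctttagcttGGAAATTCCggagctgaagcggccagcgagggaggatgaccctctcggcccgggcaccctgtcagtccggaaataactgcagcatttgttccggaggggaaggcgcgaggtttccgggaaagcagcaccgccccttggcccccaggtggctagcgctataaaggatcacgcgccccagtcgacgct
BIRC3 holds 2 matches and the other promoters 1 each, and PLAU holds none in this window. The chemokine CXCL2, a lower DEG placed in the cytokine list and not in this one, also holds a match, at -77 to -69 from its start site. The absence of a lower DEG among the NF-kappaB genes thus depends on which genes were listed. A match is a description of letters and not a measured binding site. In the same windows the TATA box letters TATAAA, on either strand, occur in 16.5% of higher and 17.4% of lower DEGs, against 7.65% of all genes tested. GC content also differs between the sets, with a median of 69.4% in higher DEGs, 61.7% in lower DEGs and 64.8% in all.

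Other immune lists had few DEGs. TNFSF9 was the only one of 19 TNF ligands and receptors. Of 42 cytokine receptor, JAK-STAT and PIM genes, the kinase PIM1 (0.98 ± 0.14 (SE), adjusted p = 0.0318) and the cytokine signalling inhibitor SOCS2 (0.93 ± 0.07 (SE), adjusted p = 0.0145) rose. The neutrophil chemokine CXCL2 fell (-0.55 ± 0.09 (SE), adjusted p = 0.0435, block p 0.0505), the only DEG of 23 cytokines and chemokines. MICB, a stress ligand of natural killer cells, rose (0.83 ± 0.15 (SE), adjusted p = 0.048, block p 0.0547), the only DEG of 30 antigen presentation genes. None of 54 interferon-stimulated genes passed (17 had an unadjusted p under 0.05, a share near that of all genes), with a median of -0.02. The GTPase GBP2 was 5.75, 5.53 and 5.28 in the controls and 4.67, 3.79 and 3.62 in the KO samples and passed only with the block (-1.50 ± 0.30 (SE), adjusted p = 0.0579, block p 0.0486), and IFI35 was at 0.39 ± 0.07 (SE), adjusted p = 0.0545.

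The share of DEGs in the growth control lists lay between 0% and 8.0%. CDKN1A, the p21 inhibitor of cyclin-dependent kinases and a p53 target, was 4.03, 3.83 and 3.83 in the controls and 4.73, 4.74 and 4.77 in the KO samples (0.85 ± 0.07 (SE), adjusted p = 0.0145). It was the only DEG of 36 cyclins, kinases and inhibitors (2.78%, against 2.14% of all genes) and, with GDF15, 1 of 2 among 25 p53 targets. BIRC3 was the only DEG of 41 apoptosis regulators (2.44%). None of 58 replication and mitosis genes passed (7 had an unadjusted p under 0.05, a share below the 25.1% of all genes), with the centromeric histone CENPA at 0.26 ± 0.08 (SE), adjusted p = 0.12 and CKS1B at 0.31 ± 0.09 (SE), adjusted p = 0.103. None of 62 DNA repair genes was a DEG (5 had an unadjusted p under 0.05). The damage sensor DDB2 (0.33 ± 0.04 (SE), adjusted p = 0.029) and the recombination gene XRCC3 (0.34 ± 0.06 (SE), adjusted p = 0.0385) had an adjusted p under 0.05 with changes under 0.5, and neither did with the block (block p 0.0612 and 0.0691).

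Detoxification genes moved in both directions. Of 26 genes of platinum transport and detoxification, 2 rose and 1 fell. The glutathione transferase GSTP1 was 3.77, 4.03 and 4.52 in the controls and 5.35, 5.29 and 5.31 in the KO samples (1.21 ± 0.19 (SE), adjusted p = 0.0357, block p 0.06), and the efflux transporter ABCC4 was at 0.91 ± 0.10 (SE), adjusted p = 0.0199. GSTM3, another glutathione transferase, was 4.66, 4.44 and 4.38 in the controls and 3.76, 3.74 and 3.64 in the KO samples (-0.78 ± 0.09 (SE), adjusted p = 0.0199). Of 41 NRF2 and antioxidant genes, FTH1 rose and 3 oxidoreductases fell. NQO1 was 8.29, 8.41 and 8.49 in the controls and 7.62, 7.74 and 7.51 in the KO samples (-0.77 ± 0.08 (SE), adjusted p = 0.0193), AKR1C3 was 2.42, 2.59 and 2.56 in the controls and 1.36, 0.95 and 0.51 in the KO samples (-1.59 ± 0.21 (SE), adjusted p = 0.03, block p 0.0569) and AKR1B10 was at -0.52 ± 0.09 (SE), adjusted p = 0.0487 (block p 0.0862). The block fit called 2 of the list. None of 5 metallothioneins passed (0 with an unadjusted p under 0.05), with MT2A at 0.20 ± 0.10 (SE), adjusted p = 0.251 and MT1X at -0.22 ± 0.18 (SE), adjusted p = 0.485.

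Retinoid and aldehyde dehydrogenase genes gave 2 lower DEGs of 30, with 22 genes lower in KO and a median of -0.12. ALDH3A1, which oxidises aromatic and lipid aldehydes, was 3.13, 2.55 and 2.68 in the controls and 1.91, 1.84 and 1.69 in the KO samples (-0.97 ± 0.16 (SE), adjusted p = 0.0399, block p 0.0505), and ALDH1A1 is given above. With the block neither passed. The prostaglandin list of 14 held the DEGs PTGS1, lower, and ABCC4, higher.

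Of 44 ATF4 and unfolded protein response genes, the transsulfuration enzyme CBS rose (0.77 ± 0.07 (SE), adjusted p = 0.0145) and XBP1 fell, with 27 genes lower. None of 44 heat shock genes was a DEG (9 had an unadjusted p under 0.05), with DNAJB2 at 0.33 ± 0.08 (SE), adjusted p = 0.0864, and the block fit called CRYAB. The SEC and TMED families, grouped by symbol alone, hold many genes of the secretory pathway. A lower KO mean was seen in 20 of 24 SEC genes and 8 of 10 TMED genes, against 5246 of all 11529 genes. Their medians were -0.13 and -0.12, with 0 DEGs in each. Both families were singled out after their values were seen.

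Lipid metabolism was read from several lists. Cholesterol synthesis and uptake had a median change of 0.27, with 28 of 34 genes higher in KO by sign, 7 with an unadjusted p under 0.05 and no DEG. STARD4, a sterol carrier, was 3.26, 2.67 and 3.11 in the controls and 4.16, 3.75 and 3.66 in the KO samples (0.84 ± 0.20 (SE), adjusted p = 0.0768), and the mevalonate enzyme MVD was 6.92, 6.71 and 6.75 in the controls and 7.85, 7.25 and 7.28 in the KO samples (0.67 ± 0.18 (SE), adjusted p = 0.0914). In both, KO replicate 1 was the highest sample. The mean level over the list was 5.34, 5.09 and 5.11 in the controls and 5.68, 5.31 and 5.28 in the KO samples, so it overlapped between the groups, and without KO replicate 1 the median fell to 0.13.

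Of 36 fatty acid and PPAR genes, 3 rose. FADS3, of the fatty acid desaturase cluster, was 3.31, 3.42 and 3.51 in the controls and 4.29, 4.70 and 5.10 in the KO samples (1.28 ± 0.20 (SE), adjusted p = 0.0379). ACSL4, which activates arachidonic acid, was 1.92, 1.84 and 2.27 in the controls and 3.24, 3.20 and 3.11 in the KO samples (1.17 ± 0.12 (SE), adjusted p = 0.0183), and the nuclear receptor PPARG was at 0.56 ± 0.09 (SE), adjusted p = 0.0385. Of 50 glycolysis and hypoxia genes, LDHB and the phosphofructokinase PFKP (0.79 ± 0.14 (SE), adjusted p = 0.0465) rose, while 30 had a lower KO mean.

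GALNT enzymes add the initial sugar of mucin-type O-linked glycans, and 4 of 12 measured members fell, the highest share of DEGs (33.3%) among the 132 symbol families with 10 or more measured genes. GALNT10 was 5.64, 5.58 and 5.43 in the controls and 5.05, 4.80 and 4.92 in the KO samples (-0.62 ± 0.09 (SE), adjusted p = 0.0329), GALNT3 was 5.50, 5.26 and 5.41 in the controls and 4.83, 4.77 and 4.92 in the KO samples (-0.55 ± 0.08 (SE), adjusted p = 0.0329), and GALNT1 (-0.51 ± 0.09 (SE), adjusted p = 0.0413) and GALNT14 (-0.50 ± 0.07 (SE), adjusted p = 0.0316) were at smaller changes. With the block, GALNT10 (block p 0.0505), GALNT1 (block p 0.0519) and GALNT14 (block p 0.0575) lost the call. The family was singled out after its values were seen. Of all 69 glycosyl- and sulfotransferases listed, ST6GALNAC2, which caps O-glycans with sialic acid, was the only one that rose (0.82 ± 0.08 (SE), adjusted p = 0.0145), and the block fit called GALNT3, ST6GALNAC2 and SULT1A1.

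Ribosomal protein genes differed by small amounts in the same direction. All 83 cytosolic ribosomal protein genes had a higher KO mean, with a median change of 0.18. In 61 of the 83 the groups did not overlap, against 31.0% of all genes, and 51 had an unadjusted p under 0.05, but none exceeded the 0.5 limit. RPL13, of the large subunit, was 10.69, 10.79 and 10.84 in the controls and 11.18, 11.13 and 11.08 in the KO samples (0.36 ± 0.06 (SE), adjusted p = 0.0383, block p 0.0821), and RPS12, of the small subunit, was at 0.24 ± 0.05 (SE), adjusted p = 0.0598. The mean level over the 83 genes was 9.33, 9.45 and 9.48 in the controls and 9.63, 9.63 and 9.55 in the KO samples, without overlap. Many ribosomal protein genes have processed pseudogenes, between which reads may be split. Under quantile normalization the median was 0.082 and 75 of the 83 stayed higher.

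Mitochondrial ribosomal proteins, encoded in the nucleus, were higher in 66 of 75 (median 0.10, 0.058 without control replicate 1, 22 with an unadjusted p under 0.05, no DEG), with MRPS24 at 0.32 ± 0.05 (SE), adjusted p = 0.0352 (block p 0.073) and MRPL41 at 0.28 ± 0.04 (SE), adjusted p = 0.0357 (block p 0.0745). Transcripts of the mitochondrial genome had the opposite sign: 14 of 15 had a lower KO mean, 9 without overlap, and the median was -0.24. MT-RNR2, the large ribosomal RNA, was 12.41, 12.48 and 12.34 in the controls and 12.17, 11.94 and 11.69 in the KO samples (-0.48 ± 0.13 (SE), adjusted p = 0.0907), and MT-ND4, a complex I subunit, was 13.37, 13.31 and 13.27 in the controls and 13.10, 13.04 and 13.10 in the KO samples (-0.24 ± 0.05 (SE), adjusted p = 0.0598), both chosen after their values were seen. None of the 15 passed the test, 9 having an unadjusted p under 0.05. Nuclear-encoded oxidative phosphorylation subunits had 52 of 75 genes higher, 9 with an unadjusted p under 0.05, no DEG and a median of 0.07, with CYC1 at 0.28 ± 0.06 (SE), adjusted p = 0.0592 and COX8A at 0.23 ± 0.06 (SE), adjusted p = 0.0927.

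Other housekeeping and chromatin lists held almost no DEG. None of 37 proteasome subunits passed, though 32 were higher by sign and 12 had an unadjusted p under 0.05 (PSMD4 0.29 ± 0.06 (SE), adjusted p = 0.0561, and PSMB4 0.23 ± 0.05 (SE), adjusted p = 0.0598). None of 79 translation factors and tRNA synthetases was a DEG (16 had an unadjusted p under 0.05), with EIF4G2 at 0.35 ± 0.06 (SE), adjusted p = 0.0449 (block p 0.0534) and EIF4EBP2 at -0.36 ± 0.04 (SE), adjusted p = 0.021 (block p 0.0528). The splicing regulator MBNL3 fell (-0.53 ± 0.09 (SE), adjusted p = 0.0442), 1 of 82 splicing genes, and HIST3H2A rose (0.98 ± 0.15 (SE), adjusted p = 0.0361, block p 0.082), 1 of 23 histone genes. Histone messages mostly lack the tail by which mRNA was selected. None of 40 Polycomb and histone methylation genes passed (2 with an unadjusted p under 0.05, PHF19 0.32 ± 0.07 (SE), adjusted p = 0.063, and RBBP4 -0.19 ± 0.05 (SE), adjusted p = 0.103), nor did any of 30 other remodelers (4 with an unadjusted p under 0.05, CHD6 -0.37 ± 0.09 (SE), adjusted p = 0.0771, and RUVBL2 0.27 ± 0.08 (SE), adjusted p = 0.1). Of 17 imprinted genes, PEG10 and SGCE rose and DDC, an aromatic amino acid decarboxylase, fell (-1.06 ± 0.14 (SE), adjusted p = 0.0264, block p 0.0625).

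By chromosome, the share of DEGs lay between 0% (mitochondrial) and 4.35% (chromosome 21). Median changes of nuclear chromosomes lay between -0.030 and 0.024, except on chromosomes 16 (0.052), 17 (0.046), 19 (0.099) and 22 (0.088). On chromosome 19, which holds SMARCA4, 71.4% of 802 genes had a higher KO mean. The median was 0.14 for the 203 genes on the side of SMARCA4 toward the short-arm end, 0.055 for the 174 between SMARCA4 and the centromere and 0.099 for the 424 of the long arm, so the difference was not limited to the edited arm.

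Base composition moved with these changes. Across 10308 genes with a mean log2 value over 1 and a GC content, the change and the GC content of the transcripts had a Spearman correlation of 0.30, a description across genes of the same 6 libraries. Transcripts of higher DEGs had a median GC content of 57.6%, those of lower DEGs 47.5%, and all genes 49.9%. After a correction for GC content and length in each sample, added after the data were seen, the medians were 0.040 on chromosome 19 and 0.042 on chromosome 22, against 0.021 for all genes, and chromosomes 18 (0.062) and 8 (0.051) were then the highest. After it the fit called 361 genes (211 higher), of which 213 were among the DEGs. The cytosolic ribosomal median was 0.19 and the mitochondrial genome median -0.22 after this correction. With it, 7 of the 102 DEGs chosen by the rule for named genes lost the call and 8 of the 60 list medians changed sign.

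**Figure D2:**
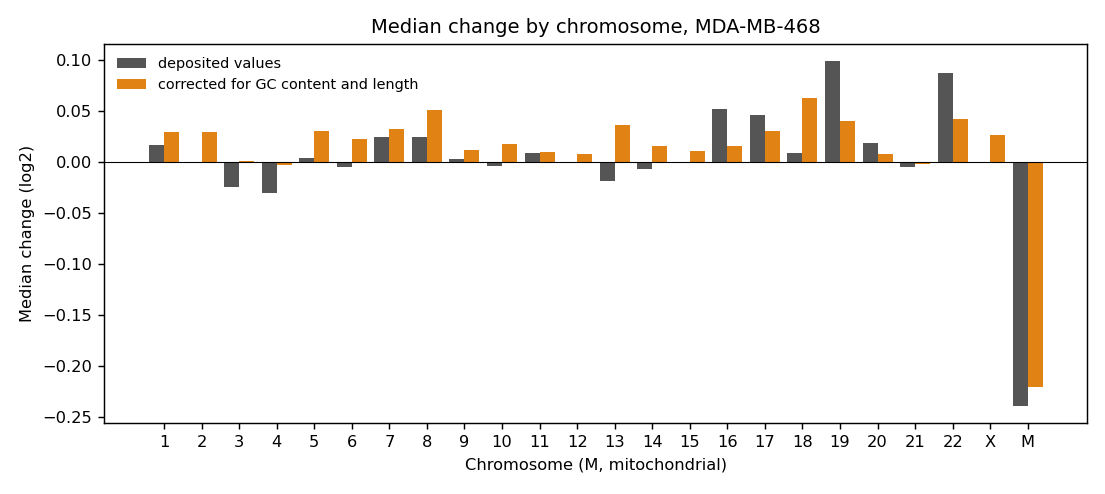
Median change (y axis, KO minus control on the log2(FPKM + 1) scale) of the genes of each chromosome (x axis), from the deposited values (grey) and after a correction for GC content and transcript length per sample (orange). Chromosomes 19 and 22 stand highest in grey, at 0.099 and 0.088, and fall to 0.040 and 0.042 in orange, while the mitochondrial genome stays at -0.22.

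The change was then set against that of MDA-MB-231, a mesenchymal-like triple-negative line edited with the same guide. The difference between the 2 changes, the limma interaction over all 12 samples, had an adjusted p under 0.05 for 1699 of the 11529 genes (14.7%), of which 53.7% were positive, a share that was 41.6% after scaling to the 75th percentile. It passed for 83 of the 102 DEGs chosen by the rule for named genes. SMARCA4 itself fell more in MDA-MB-231 (-1.16 here and -1.57 in MDA-MB-231, difference 0.41 ± 0.11, adjusted p = 0.027). These genes were chosen for their change in MDA-MB-468, so a larger size there, seen in 74 of the 83, is favoured by the choice. In 40 of the 83 the changes had opposite signs. SOCS2 was at 0.93 here and -1.44 in MDA-MB-231 (adjusted p of the difference = 2.66e-05). TNC was at 1.11 here and -1.04 in MDA-MB-231 (adjusted p of the difference = 1.12e-05), and ALDH3A1 at -0.97 here and 1.19 in MDA-MB-231 (adjusted p of the difference = 0.000612). In these 3 genes KO cells of 1 line were higher and of the other lower than their controls.

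Other members had values nearer to 0 in MDA-MB-231: LDHB was at 1.59 here and -0.25 in MDA-MB-231, FSCN1 at 2.06 here and -0.12 in MDA-MB-231, CRISP3 at -3.0 here and 0.0 in MDA-MB-231 and XBP1 at -1.23 here and -0.05 in MDA-MB-231. CRISP3 is listed at 0 in all 6 MDA-MB-231 samples, and KRT4 in 5 of the 6, so neither had a level there from which to fall. The difference did not pass for 19 named DEGs, and a p over the threshold does not show that the lines acted alike. JAG2 was at 1.25 here and 1.19 in MDA-MB-231, with a difference of 0.07 ± 0.32 (SE), GDF15 at 0.76 here and 1.02 in MDA-MB-231 and TGFB3 at -0.81 here and -0.63 in MDA-MB-231. ARHGDIB (-0.57 here and -1.68 in MDA-MB-231) and GALNT3 (-0.55 here and -1.20 in MDA-MB-231) fell in both lines, more so in MDA-MB-231.

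**Figure D3:**
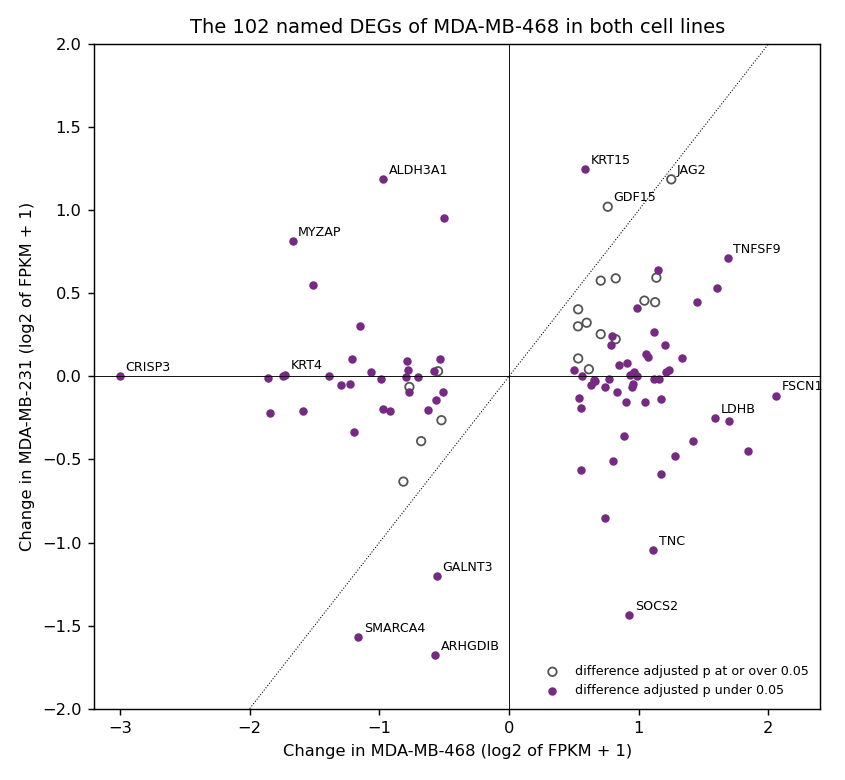
Change of the 102 named DEGs, with MDA-MB-468 on the x axis and MDA-MB-231 on the y axis, both KO minus control on the log2(FPKM + 1) scale, with genes whose difference between the lines passed the interaction test filled and the others open. The dotted line marks equal change; many filled points lie near 0 on the y axis, and SMARCA4, GALNT3 and ARHGDIB lie below the dotted line in the lower left.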

How the data were processed

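RNA from 6 MDA-MB-468 samples, and from 6 MDA-MB-231 samples used for the comparison of lines, was sequenced by the authors as poly(A)-selected, stranded libraries. Reads were trimmed with Trimmomatic and aligned to hg19 with STAR, and genes were quantified with RSEM. The deposited values are log2(FPKM + 1) by the study's methods, of genes the authors kept for their mean and spread over all samples, and the table's header names no unit. No counts were used here, so depth and counting error are unknown. The 18 gene symbols that a spreadsheet turned into dates were tested but not named.

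Changes were fitted with limma 3.58.1 in R 4.3.3 on the deposited values of the 6 samples without further scaling, and the difference between lines as an interaction over all 12. A DEG had a Benjamini-Hochberg adjusted p under 0.05 and an absolute change over 0.5, with FPKM obtained by subtracting the pseudocount of 1. On this scale the change of low genes is understated. With 3 samples per group, no exact permutation test of a single gene can go below p = 0.1, so none was run. The limma fit of KO against control was tested on simulated data, and the other steps were not. Gene lists and named genes (SMARCA4 and subunits, the 15 largest changes of DEGs each way, the 5 most abundant DEGs each way, all DEGs of a list, and the 2 genes with the smallest p of a list without a DEG) were chosen with earlier results of these data known. A gene chosen by this rule is counted but not reported here. Genes named outside this rule were chosen after their values were seen. Same-numbered samples, by the numbers of the labels, were taken as pairs from these same values. Their deviations from the group means correlated at 0.26, 0.18 and 0.14 over 10874 genes with a mean over 1. Control replicate 3 and KO replicate 2 correlated at 0.14 as well, and the other pairings at -0.24 to 0.015. The values thus do not settle how replicates 2 and 3 pair. The descriptions also carry a p number, whose meaning is not given in the sources used here. By it, control replicates 1 and 2 go with KO replicates 2 and 3, pairs that correlated at -0.24 and 0.015. GC content, length and positions came from the GRCh37 annotation, in which 10873 genes (94.3%) were found, 694 of them by an older symbol, and promoters from RefSeq.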

Additional observations from a re-analysis of the deposited data

Results flagged for a closer look

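For 83 of the 102 DEGs chosen by the rule for named genes the change differed between MDA-MB-468 cells and those of MDA-MB-231 by the interaction test (limma, adjusted p from 1.12e-05 to 0.0494), and the difference of each gene reported here, MDA-MB-468 minus MDA-MB-231 on the log2(FPKM + 1) scale, is given in brackets. The genes were chosen for their change in MDA-MB-468, so a larger size there is favoured by the choice, and 40 had opposite signs in the lines. Among matrix, cytoskeletal and mesenchymal genes, the difference was positive for SERPINB7 (2.30), FSCN1 (2.18), TNC (2.16), ITGB2 (1.59), FOXC1 (1.31), PDGFC (1.25), COL5A2 (1.13), TNNT1 (1.07), COL13A1 (1.01), TIMP3 (1.0), MYL9 (0.96), PDLIM1 (0.93), TPM2 (0.81) and PLAU (0.74), and negative for TMPRSS4 (-0.98). Among epithelial genes and SMARCA4, the difference was positive for KRT10 (1.21), CLDN8 (0.56) and SMARCA4 (0.41), and negative for MYB (-0.42), KRT15 (-0.66), FOXA1 (-0.79), NFIA (-0.88), XBP1 (-1.18), CLDN10 (-1.39), KRT4 (-1.73) and CRISP3 (-3.0). Among signalling genes, the difference was positive for SGK1 (1.81), GAS6 (1.18), TGFB1 (1.02), ETS1 (1.0), NTN1 (0.94), NUAK2 (0.92), ROBO3 (0.85), LFNG (0.69), JUND (0.68), PHLDB2 (0.55), TCF7L1 (0.51) and FZD2 (0.46), and negative for BTG1 (-0.61), KITLG (-0.70) and FZD4 (-0.78). Among immune and growth control genes, the difference was positive for SOCS2 (2.37), ARHGDIB (1.11), TNFSF9 (0.97), MICB (0.93), CDKN1A (0.78) and PIM1 (0.57). Among metabolic and detoxification genes, the difference was positive for LDHB (1.84), FADS3 (1.76), ACSL4 (1.76), GSTP1 (1.18), PPARG (1.12), ABCC4 (0.83), CBS (0.79), GALNT3 (0.65) and PFKP (0.60), and negative for GALNT1 (-0.41), GALNT10 (-0.42), NQO1 (-0.68), GSTM3 (-0.82), AKR1C3 (-1.38), GALNT14 (-1.45), PTGS1 (-1.62), ALDH1A1 (-1.85) and ALDH3A1 (-2.16). Among other genes, the difference was positive for PEG10 (1.97), LIMS2 (1.31), CTNNAL1 (1.23), ATP6V1C2 (1.20), SGCE (1.06), HIST3H2A (0.98) and FHL2 (0.69), and negative for MBNL3 (-0.64), STARD10 (-0.71), NAV2 (-0.86), DDC (-1.09), SNCG (-1.25), RCSD1 (-1.31), HRASLS2 (-1.46), RP11-91J3.3 (-1.74), ZBTB7C (-2.07) and MYZAP (-2.48). SMARCA4, ARHGDIB and GALNT3 decreased by more in MDA-MB-231, which gives a positive difference, and KRT15 was higher in KO cells of both lines by more in MDA-MB-231, which gives a negative one. Genes expressed near 0 in MDA-MB-231, such as CRISP3, KRT4, CLDN10 and ALDH1A1, cannot fall there on this scale. Examples of opposite signs, with the MDA-MB-468 value first, were SOCS2, at 0.93 and -1.44, TNC, at 1.11 and -1.04, and ALDH3A1, at -0.97 and 1.19.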

How the results depend on the processing

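The count of 247 DEGs was 241 with the replicate block, 268 with a pseudocount of 0.1, 268 with an intensity trend, 248 after scaling to the 75th percentile, 252 after quantile normalization and 361 after the GC correction that was added after the data were seen. It was 424 among the 10874 genes with a mean over 1, where fewer genes are tested, 537 in 1 fit of all 12 samples, 53 with an absolute change over 1, 614 with an unadjusted p under 0.05 and 0 in limma with a block by the p number (582 at an unadjusted p under 0.05 past the fold limit). In the block by the p number, the KO sample and the control sample whose numbers had no match were put together. Leaving out 1 library gave 0 to 474 DEGs. The count of genes that differed between the lines was 1463 with the replicate block, 1612 after scaling, 1474 with a pseudocount of 0.1 and 1696 among genes with a mean over 1, and 924 to 1897 without 1 library. The cause of these differences was not tested.

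None of the 102 named DEGs changed direction under any alternative run, but most of these runs could not have reversed one. Leaving out 1 library cannot, as the groups of every DEG did not overlap. The block fits, the intensity trend and the fit of all 12 samples leave the change itself as it was. The replicate block ended 31 of the 102 calls and made CRYAB and GBP2, of the 57 other genes named by the rule, pass. It changed no other call among these 159 genes. Calls were lost by 13 genes with a pseudocount of 0.1, 9 after quantile normalization, 7 after the GC correction and 5 in the fit of 12 samples. Without control replicate 2 or KO replicate 2 all 102 lost the call, against 8 without KO replicate 1. Of the 60 list medians, 8 changed sign after the GC correction and 3 after quantile normalization. The replicate block leaves every change, and so every median, as it was. With no counts, the depth behind low values such as those of GDF15 and ROBO3 is unknown.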
